A study of Mus musculus with 4 samples.

Results

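Open chromatin was compared between cDC1 and pDC at 5 loci of the AP-1 family of transcription factors, Batf3, Batf, Jdp2, Fos and Jun. The loci were taken as fixed windows of mm9, the mouse genome build of the peak lists. The Batf3 window ran from 192.87 to 192.98 Mb of chromosome 1 (110 kb). The Fos, Jdp2 and Batf windows lay on chromosome 12, from 86.78 to 86.86 Mb (80 kb), from 86.91 to 87.0 Mb (90 kb) and from 87.0 to 87.07 Mb (70 kb). The Jun window ran from 94.66 to 94.78 Mb of chromosome 4 (120 kb). Of 83701 open intervals listed in cDC1 and 51941 in pDC, 71 and 40 lay in these windows. Of 513689 footprints in cDC1 and 312959 in pDC, 455 and 241 lay there. Where intervals of both lists were joined into 1 set of regions, the windows held 74 of 93615 regions. Each region is named by its window and its number counted from the left edge, so that Batf3-14 is the fourteenth region of the Batf3 window. Where a gene is said below to hold a region, its window is meant, and no region was assigned to a gene.

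The cells were dendritic cells grown from mouse bone marrow in a culture of successive steps, an amplification with cytokines followed by differentiation with Flt3 ligand. cDC1, which present antigen taken up from other cells, were sorted as CD11c+ CD11b+ XCR1+, and pDC, which secrete type I interferon, as CD11c+ CD11b- B220+. Both groups came from the same culture system, with no genetic change or further treatment named, and the sources used here name no strain, sex or age. Omni-ATAC-seq, in which the transposase Tn5 cuts accessible DNA, was run on 2 replicates per cell type, and the replicates were merged, so that every value below is that of 1 merged library per cell type with no replicate error. The lists hold no gene names, so the sorted identities were not checked against marker genes, and a region open in fewer cells cannot be told apart from one less open in each cell.

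AP-1 factors are basic leucine zipper proteins that bind DNA as dimers. FOS pairs with JUN, and such dimers bind the palindrome TGANTCA and activate transcription in response to many stimuli. BATF and BATF3 lack the activation domain of FOS, pair with JUN proteins and bind composite elements together with IRF4 or IRF8. BATF3 is required for the development of cDC1 in mice, and BATF can stand in for it in some settings. JDP2 pairs with JUN and ATF proteins and mostly acts as a repressor. In the mouse, Fos, Jdp2 and Batf are adjacent protein-coding genes of chromosome 12, and Atf3, another member of the family, lies close to Batf3.

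The start regions of these genes are shown because AP-1 and CRE elements there are a known route of regulation within the family. Sequences are the 250 bases before the transcription start in RefSeq (GRCm38.p6), and all 5 genes were matched by symbol, Jdp2 with 3 start sites. They are on a different build from the lists, so no open interval was placed on them. The motifs TGANTCA (AP-1), TGACGTCA (CRE), CACCTG (an E-box) and the CArG box, searched on both strands, were held by 6.75%, 1.55%, 17.2% and 1.47% of 32851 promoters of the same length. None of them was found in the 7 promoters of the 5 genes. Another pair of motifs was searched after the sequences had been read. TGACG, the shorter CRE element contained in TGACGTCA, was held by 17.8% of promoters, and CACGTG, another E-box, by 6.02%. TGACG was found at positions -129 to -125 and -66 to -62 of Fos, -114 to -110 of start site 2 of Jdp2 and -98 to -94 of Batf. CACGTG was found at -247 to -242 of Batf3. Neither motif was found in Jun. Only exact matches were counted, so variants such as tgacatca, which the Jun promoter holds, were not searched for. Capitals in the sequences below mark the matches found, positions are counted back from the start, and all 4 sequences are on the plus strand.

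Fos, chr12:85473640-85473889: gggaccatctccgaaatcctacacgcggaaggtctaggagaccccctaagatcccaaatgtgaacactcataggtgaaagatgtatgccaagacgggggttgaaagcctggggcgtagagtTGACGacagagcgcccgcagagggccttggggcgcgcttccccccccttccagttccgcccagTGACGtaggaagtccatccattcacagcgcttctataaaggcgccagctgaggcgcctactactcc

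Jdp2, start site 2, chr12:85599166-85599415: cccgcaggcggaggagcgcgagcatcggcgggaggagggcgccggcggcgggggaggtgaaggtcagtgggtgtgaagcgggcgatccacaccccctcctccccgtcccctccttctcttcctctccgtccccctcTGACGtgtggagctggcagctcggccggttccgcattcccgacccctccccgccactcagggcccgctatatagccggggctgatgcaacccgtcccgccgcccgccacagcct

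Batf, chr12:85686470-85686719: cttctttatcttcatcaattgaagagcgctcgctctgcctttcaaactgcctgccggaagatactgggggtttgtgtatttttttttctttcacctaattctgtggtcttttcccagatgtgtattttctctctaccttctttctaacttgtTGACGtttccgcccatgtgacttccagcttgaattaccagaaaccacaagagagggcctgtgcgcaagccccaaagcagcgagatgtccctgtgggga

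Batf3, chr1:191098164-191098413: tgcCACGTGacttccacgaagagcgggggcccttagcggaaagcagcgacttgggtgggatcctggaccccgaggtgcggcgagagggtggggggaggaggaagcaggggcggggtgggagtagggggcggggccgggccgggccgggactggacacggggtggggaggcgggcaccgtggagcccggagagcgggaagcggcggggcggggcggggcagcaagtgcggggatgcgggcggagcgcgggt

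The promoters also differed in base composition. G and C made up 76.0% of the Batf3 promoter, 72.4% of that of Jdp2 at start site 2, 61.2% of that of Jun and 58.4% of that of Fos, against a median of 52.4% over all promoters. The Batf promoter, with 46.4%, lay below that median, and the quartiles over all promoters were 45.2% and 61.2%.

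Several measures were used for each region. An interval is a stretch that MACS2 called open, with a q-value and a fold enrichment over the background of the library. A footprint is a short stretch, within an interval or running a few bases past one of its ends, that HINT-ATAC marked as protected by a bound protein, and it carries a value read here as a tag count, the number of Tn5 cuts over a stretch that the sources do not state. cDC1 were the more deeply covered library. Over all 91319 pairs of footprints that lay at the same place in both lists, the tag count in cDC1 was a median of 3.28 times that in pDC (quartiles 2.52 and 4.08). A tag count ratio of cDC1 over pDC was therefore divided by 3.28, and of the pairs in a region that with the most tags was kept. By the library statistics of the study, cDC1 had 1.75 times the reads of pDC, and 3.72 times the reads in peaks. The factor of 3.28 is thus not the ratio of sequencing depth alone. The −log10 q values also grow with depth, so they rank regions within a list and are not a measure of difference between the cell types.

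More of the windows was listed as open in cDC1 than in pDC at each of the 5 loci. Intervals covered 40626 bp in cDC1, which was 8.64% of the windows, and 21705 bp in pDC, which was 4.62%. The share was highest at Fos in cDC1 (11.1%, against 6.75% in pDC) and at Batf3 in cDC1 (11.0%, against 4.64% in pDC). Jun had the lowest share in both cell types, 5.05% in cDC1 and 2.69% in pDC. In the whole lists, intervals covered 43144631 bp in cDC1 and 26403859 bp in pDC.

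Of the 74 regions, 36 were open in both cell types (48.6%, Wilson 95% interval 37.6 to 59.8%, against 43.5% of all regions). In cDC1 only, 35 were open (47.3%, 36.3 to 58.5%, against 45.5% of all regions). In pDC only, 3 were open (4.05%, 1.39 to 11.3%, against 11.0% of all regions). Shares at these loci thus lay near those of the genome for the first 2 classes, and the share open in pDC only was lower, with an upper bound just above the genome's. All 3 lay within 10 kb of a window edge, and windows trimmed by 10 kb on each side held 0. Counted as intervals, 36 of 71 cDC1 intervals overlapped a pDC interval by at least 1 bp (50.7%, 39.3 to 62.0%, against 49.1% of the list). In turn 37 of 40 pDC intervals overlapped a cDC1 interval (92.5%, 80.1 to 97.4%, against 80.3% of the list). All these intervals cover counting error only, and neighbouring regions are not independent.

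**Figure D1:**
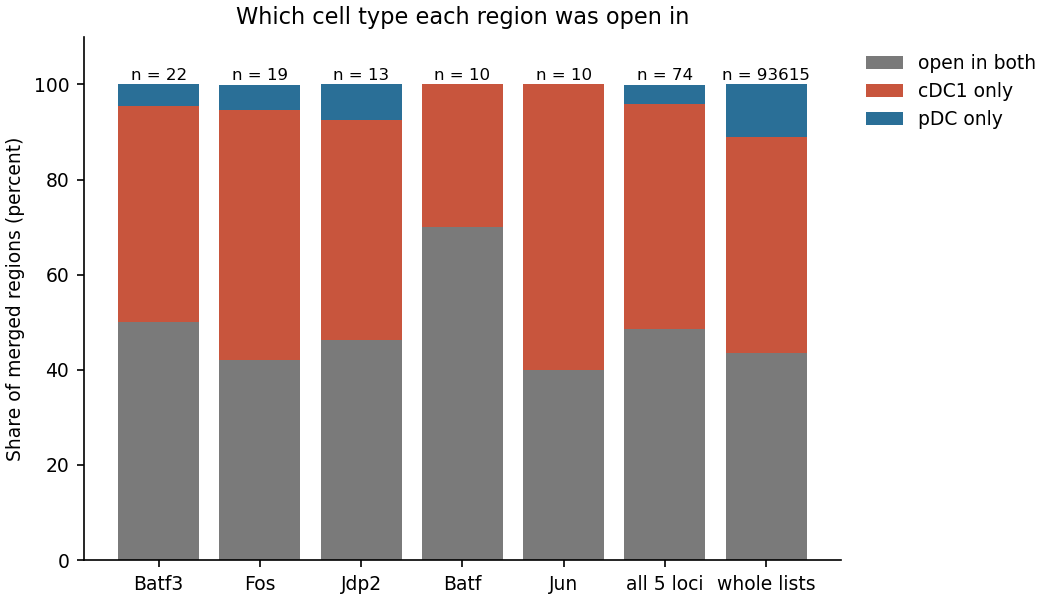
Bars give the share of regions (percent) by class, open in both, open in cDC1 only or open in pDC only, for each window, for all 5 together and for the whole lists, with the number of regions above each bar. Batf had the largest share open in both (70.0%), Jun the largest share open in cDC1 only (60.0%), and no region open in pDC only was listed at Batf or Jun.

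The loci differed in these counts, on few regions each. At Batf3, 11 of 22 regions were open in both and 10 in cDC1 only. At Batf, 7 of 10 were open in both (70.0%, 39.7 to 89.2%) and 3 in cDC1 only. At Jdp2, 6 of 13 were open in both and 6 in cDC1 only. At Fos, 8 of 19 were open in both and 10 in cDC1 only. At Jun, 4 of 10 were open in both and 6 in cDC1 only (60.0%, 31.3 to 83.2%). The Wilson intervals of the 5 shares open in both overlap one another.

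The regions open in cDC1 only were mostly narrow and weak. They were 210 to 855 bp wide with a median of 372 bp, against 642.5 bp for regions open in both. Their median −log10 q in cDC1 was 20.1 (2.87 to 355), against 134 for the cDC1 intervals shared with pDC. Medians in the whole cDC1 list were 13.5 and 81.7. Of the 35, 9 had a −log10 q above 50. Because pDC were covered less deeply, the highest tag count of each region was also divided by 3.28 and set against 107, the median of the highest tag counts of pDC regions. Of 33 regions with a footprint open in cDC1 only, 9 stayed above 107 (27.3%), as did 13.0% in the whole list. By locus these were 5 of 10 at Batf3, 2 of 5 at Jdp2, 1 of 10 at Fos, 1 of 6 at Jun and 0 of 2 at Batf. The other 24 lay at or below 107 after scaling, and the part of depth in their absence from the pDC list was not tested.

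**Figure D2:**
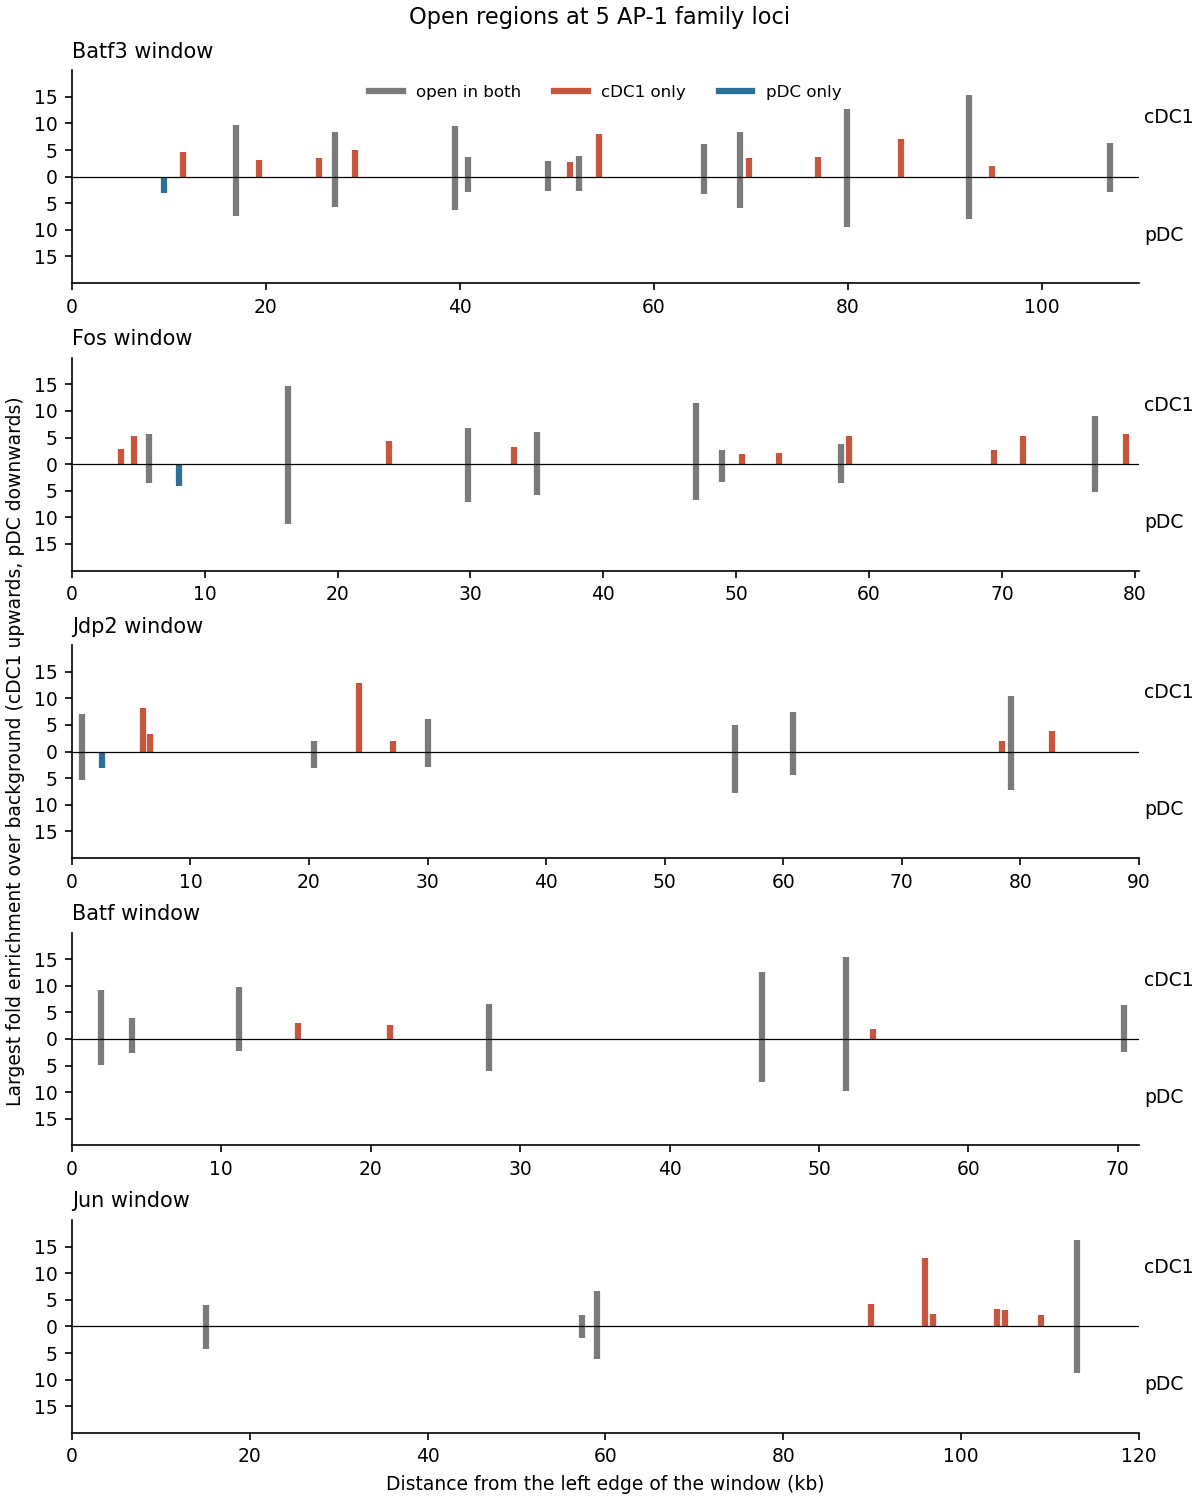
Each vertical line is a region, at its distance from the left edge of the window (kb), with the largest fold enrichment over background in cDC1 drawn upwards and in pDC drawn downwards, and colour gives the class of the region. Lines open in cDC1 only stand between those open in both at each locus, and at Batf3, Fos and Jdp2 some also stand outside them. The tallest are at Jdp2 and Jun (12.8 each), and the 3 lines open in pDC only lie within 10 kb of a window edge. The Batf axis runs on past 70 kb to hold Batf-10.

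At regions open in both, tag count ratios of cDC1 over pDC were set against those of the genome. The tag counts themselves were higher than in the whole lists. All footprints of the windows held a median of 352 tags in cDC1 and 150 in pDC, against 212 and 100. A pair of footprints was found in 32 of the 36 regions. The scaled ratio was at least 2-fold higher in cDC1 in 3 (9.38%, against 8.93% of 31914 regions with a pair) and at least 2-fold higher in pDC in 2 (6.25%, against 12.6%). The other 27 lay between 0.501 and 1.85. The median log2 ratio was 0.21 over the 32 regions, against -0.01 over all regions with a pair, and by locus it was 0.39 at Batf3, 0.30 at Batf, 0.23 at Jun, 0.18 at Jdp2 and 0.10 at Fos. The ratio was above 1 in 20 regions and below 1 in 12. The exact 95% interval of the single ratio, which covers counting error only, lay wholly above 1 in 14 regions and wholly below 1 in 6. It lay wholly beyond 2-fold at Batf-3 and Batf3-14 on the cDC1 side and at Jdp2-9 on the pDC side. Scaling by the number of all reads instead of the median ratio moved every log2 ratio up by 0.91, after which 19 of 32 passed 2-fold on the cDC1 side (42.8% of all regions with a pair) and 1 on the pDC side (3.36%).

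**Figure D3:**
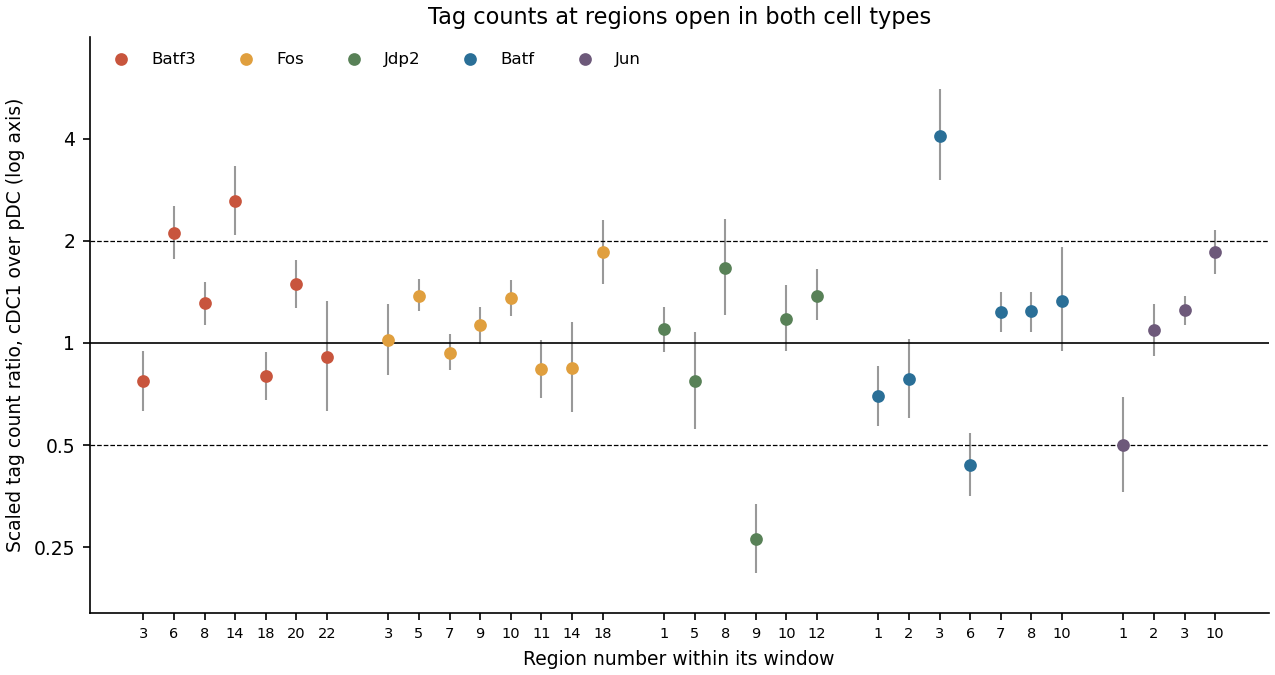
Points are the scaled tag count ratios of cDC1 over pDC (log axis) at the 32 regions with a pair, by window and region number, with exact 95% intervals as bars and dashed lines at 2-fold. Batf region 3 stands highest (4.07) and Jdp2 region 9 lowest (0.265), and 27 points lie between the dashed lines.

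Batf3, whose product is required for cDC1, had 22 regions in 110 kb and a median log2 tag ratio of 0.39 over 7 of them. In Batf3-14 (chr1:192934896-192935590) the pair held 694 tags in cDC1 and 81 in pDC, a scaled ratio of 2.62 (2.08 to 3.33). A neighbouring pair in the same region, with 640 tags in cDC1 and 75 in pDC, gave 2.61. The −log10 q was 136 in cDC1 and 7.59 in pDC, and the region ranked above 79.8% of the cDC1 list but above only 32.2% of the pDC list. In Batf3-6 (chr1:192896712-192897393) the pair held 983 tags in cDC1 and 142 in pDC, a ratio of 2.11 (1.77 to 2.54), and a further pair gave 2.09. Scaled by the reads in peaks, the ratio was 1.86, short of 2-fold. The −log10 q there was 235 in cDC1 and 29.3 in pDC. Fold enrichment did not separate the cell types at Batf3-6, where its scaled log2 ratio was 0.01, and gave 0.41 at Batf3-14.

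The strongest regions of the Batf3 window in cDC1 were nearer to balance. Batf3-20 (chr1:192962197-192962760) had −log10 q values of 297 (cDC1) and 39.4 (pDC), and its pair held 894 tags in cDC1 and 183 in pDC (ratio 1.49, 1.27 to 1.76). Batf3-18 (chr1:192949566-192950259), with −log10 q values of 296 (cDC1) and 68.9 (pDC), was the strongest of the window in pDC. Its kept pair, with 557 tags in cDC1 and 213 in pDC, gave 0.798 (0.681 to 0.939), while 2 pairs farther left in the region gave 1.08 and 1.10. Batf3-8 had a ratio of 1.31 and Batf3-3 of 0.771. Batf3-15, with −log10 q values of 241 (cDC1) and 29.6 (pDC), held no pair, nor did Batf3-9, Batf3-10 and Batf3-12. Their highest tag counts, cDC1 over pDC divided by the median of such ratios (3.24), gave 1.64, 1.10, 0.780 and 3.05 in that order. By this measure Batf3-14 was at 2.87 and Batf3-6 at 2.32, both below Batf3-12. Batf3-12 held 1 pDC footprint, of 45 tags, and shared none.

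The Batf3 window also held regions listed in cDC1 alone. Batf3-13 (chr1:192924022-192924602) had a −log10 q of 178, a fold enrichment of 7.98 and 4 footprints with up to 746 tags, and 954 of the 42640 regions open in cDC1 only had a larger −log10 q. Its highest tag count divided by 3.28 was 228, above those of 79.2% of pDC regions. Batf3-7 had a −log10 q of 92.9 with up to 582 tags. The single region open in pDC only, Batf3-1, lay 9.51 kb from the left edge of the window and was weak, with a −log10 q of 4.36 and 2 footprints of at most 45 tags.

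Batf, which encodes a close relative of BATF3, held the region farthest to the cDC1 side. In Batf-3 (chr12:87010998-87011503) the pair held 627 tags in cDC1 and 47 in pDC, a ratio of 4.07 (3.03 to 5.60), and 99.0% of all regions with a pair had a lower ratio. The other 3 pairs of the region, with 384 to 611 tags in cDC1 and 37 to 46 in pDC, gave 3.17 to 4.60. Fold enrichment was 9.76 in cDC1 and 2.26 in pDC, a scaled log2 ratio of 1.58. The −log10 q was 147 in cDC1 and 1.69 in pDC, so the region stood above 81.3% of the cDC1 list and above 0.918% of the pDC list, close to the limit of that list. Footprints lay at nearly the same places, and 4 of the 6 cDC1 footprints and 4 of the 5 pDC footprints were shared.

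Batf-6 (chr12:87027379-87028350) went the other way. Its kept pair held 218 tags in cDC1 and 152 in pDC, a ratio of 0.438 (0.354 to 0.542), which is 2.28-fold higher in pDC. Of its 5 pairs, 4 lay in the left part of the region and gave 0.427 to 0.491, and the remaining pair in the right part, with 260 tags in cDC1 and 74 in pDC, gave 1.07. The highest tag counts of the region, 270 in cDC1 and 152 in pDC, gave 0.549, and scaling by all reads gave 0.821, both short of 2-fold. Batf-1 also lay on the pDC side, with 317 tags in cDC1 and 139 in pDC (0.696, 0.569 to 0.856), but its scaled log2 fold enrichment ratio, 0.35, was on the cDC1 side, as was its tag ratio scaled by all reads, 1.31.

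The strongest regions of the Batf window were Batf-8 (chr12:87051534-87052128) and Batf-7 (chr12:87045564-87046914). Batf-8 had −log10 q values of 463 (cDC1) and 84.6 (pDC) and a fold enrichment of 15.4 in cDC1 and 9.76 in pDC. Its pair held 1146 tags in cDC1 and 283 in pDC (1.24, 1.08 to 1.41). Batf-7 had −log10 q values of 377 (cDC1) and 68.1 (pDC) and a ratio of 1.23. No region open in cDC1 only was strong here, Batf-4 having a −log10 q of 14.5 and Batf-5 of 5.35. Batf-10 crossed the right edge of the window and was counted whole, with a ratio of 1.33 (0.945 to 1.92).

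Jdp2, whose product mostly represses AP-1 targets, held regions far to either side. Jdp2-6 (chr12:86933894-86934414) was the strongest region open in cDC1 only at any of these loci. It had a −log10 q of 355 and a fold enrichment of 12.8, and only 90 of the 42640 regions open in cDC1 only had a larger −log10 q. It held 1 footprint, at chr12:86934101-86934140, with 1160 tags in cDC1. Divided by 3.28 this was 354, above the highest tag count of 91.5% of pDC regions. Jdp2-3, also open in cDC1 only, had a −log10 q of 131 and 6 footprints of up to 590 tags.

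Farther to the right, Jdp2-9 (chr12:86965559-86966182) lay farthest to the pDC side. Its only pair held 139 tags in cDC1 and 160 in pDC, a ratio of 0.265 (0.210 to 0.335), which is 3.77-fold higher in pDC (2.99 to 4.77), and 3.32% of all regions with a pair had a lower ratio. Fold enrichment was 5.00 in cDC1 and 7.78 in pDC, a scaled log2 ratio of -1.17. The −log10 q was 34.6 in cDC1 and 56.6 in pDC, the largest of the window in pDC. Of the 36 regions open in both, this and Jdp2-5 (3.97 in cDC1 and 4.80 in pDC) were the 2 with a larger −log10 q in pDC than in cDC1. The highest tag counts before any scaling were 169 in cDC1 and 215 in pDC, so that pDC were higher in spite of the lower depth. Only 1 of its 8 cDC1 footprints and 1 of its 4 pDC footprints were shared.

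Jdp2-8 (chr12:86938978-86940963) was the longest region of the window, 1986 bp, with 4 summits in each list. It held 24 footprints in cDC1 and 9 in pDC, and only 842 of the 40721 regions open in both held more. The cDC1 footprints with the most tags formed 2 groups, 1 near the left end with up to 721 tags and 1 right of the middle with up to 890, and both fell where no pDC footprint lay. The highest pDC tag count was 82. The strongest summits of the 2 lists were 416 bp apart. The kept pair, with 256 tags in cDC1 and 47 in pDC, gave 1.66 (1.21 to 2.32), whereas the highest tag counts of the region gave 3.35 and pairing at 1 bp, which kept another pair, gave 0.862, so the direction depended on the footprints compared. The other end of the Jdp2 window was nearer to balance, Jdp2-12 having −log10 q values of 193 (cDC1) and 35.3 (pDC) and a ratio of 1.38 (1.17 to 1.65). Jdp2-10 and Jdp2-1 had ratios of 1.18 and 1.10. Jdp2-2, open in pDC only 2.51 kb from the left edge, had a −log10 q of 11.0 and 4 footprints of up to 137 tags.

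Fos, the activating partner of JUN, held the region with the largest −log10 q of all 5 loci and no region beyond 2-fold. Fos-5 (chr12:86795768-86796819) had −log10 q values of 697 (cDC1) and 134 (pDC), above 99.7% of the cDC1 list and 97.8% of the pDC list. Fold enrichment was 14.7 in cDC1 and 11.3 in pDC, and the summits lay 1 bp apart. It held 12 footprints in cDC1 and 5 in pDC, and its pair held 1891 tags in cDC1 and 418 in pDC (1.38, 1.24 to 1.54). In Fos-10 the pair, which had the same ends in both lists, held 1434 tags in cDC1 and 323 in pDC (1.36, 1.20 to 1.53). In Fos-7 it held 1089 tags in cDC1 and 355 in pDC (0.937, 0.830 to 1.06). Fos-9, 1366 bp long, held 16 footprints in cDC1 and 14 in pDC, and its 7 pairs gave ratios of 1.04 to 1.23. Fos-18 was farthest to the cDC1 side at 1.85 (1.49 to 2.31), with 587 tags in cDC1 and 97 in pDC. The regions farthest to the pDC side, Fos-11 and Fos-14, had ratios of 0.839 and 0.841.

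Fos had 10 regions open in cDC1 only. Fos-8 had the largest −log10 q of these, 59.7, with 10 footprints of up to 754 tags, followed by Fos-19 with 58.2. The largest −log10 q of such regions was higher at Jdp2 (355), Batf3 (178) and Jun (150) and lower at Batf (14.5). By tag count Fos-8 ranked higher. Scaled by the median ratio of all pairs, its highest tag count was 230, above those of 79.6% of pDC regions. Among the regions open in cDC1 only at these loci, Jdp2-6 alone was higher, at 354. Fos-4, open in pDC only, had a −log10 q of 12.9 and 1 footprint of 92 tags, and 3611 of the 10254 regions open in pDC only had a larger −log10 q.

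Jun, the common partner of the other 4 factors, had the fewest open bases and the longest region. Jun-3 (chr4:94717991-94720228) spanned 2238 bp with 3 summits in each list, −log10 q values of 390 (cDC1) and 97.1 (pDC) and a fold enrichment of 6.65 in cDC1 and 6.19 in pDC. It held 28 footprints in cDC1 and 35 in pDC, together 63, and only 1 region open in both held more. Its 15 pairs gave ratios of 0.933 to 1.45, and the kept pair held 1982 tags in cDC1 and 484 in pDC (1.25, 1.13 to 1.38). The neighbouring Jun-2 had a ratio of 1.09.

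To the right of Jun-3 the lists of the 2 cell types differed. All 6 regions open in cDC1 only, Jun-4 to Jun-9, lay between Jun-3 and Jun-10, from 89.9 to 109 kb of the window. Jun-5 (chr4:94755615-94756200) was the strongest, with a −log10 q of 150, a fold enrichment of 12.8 and 3 footprints of up to 454 tags. The others had −log10 q values of 3.86 to 16.7. Jun-10 (chr4:94772554-94773343), open in both, had −log10 q values of 500 (cDC1) and 59.7 (pDC) and a fold enrichment of 16.3 in cDC1 and 8.75 in pDC. Its pair held 1263 tags in cDC1 and 208 in pDC (1.85, 1.60 to 2.16), and the other pair gave 1.98, both just short of 2-fold. At the left end, Jun-1 had 105 tags in cDC1 and 64 in pDC and a ratio of 0.501 (0.364 to 0.695), also just inside the limit. Scaled by the reads in peaks it was 0.442, past 2-fold, and by all reads 0.940.

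Fold enrichment, a measure relative to the background of each library, gave fewer differences. Its ratio of cDC1 over pDC was divided by the median over all regions open in both, 1.45. It was then at least 2-fold higher in cDC1 in 1 of the 36 regions, Batf-3 (5.80% of all regions open in both), and at least 2-fold higher in pDC in 2, Jdp2-5 and Jdp2-9 (6.34%). The median log2 ratio over the 36 was 0.00, and by locus it was 0.13 at Batf, 0.01 at Batf3, -0.06 at Jdp2, -0.31 at Fos and -0.49 at Jun, so that at Jdp2, Fos and Jun it had the opposite sign to the median of the tag count ratios. Batf-3 and Jdp2-9 passed 2-fold on the same side by both measures, whereas Batf3-6, Batf3-14 and Batf-6 did so by tag count alone. Summits of the 2 lists lay a median of 35.0 bp apart in the 36 regions, against 30.0 bp over all regions open in both.

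Shares were lower for footprints than for intervals. A footprint was counted as shared where footprints of the other list covered at least 50% of its bases. In cDC1, 118 of 455 were shared (25.9%, Wilson 95% interval 22.1 to 30.2%, against 28.6% of the list). In pDC, 130 of 241 were shared (53.9%, 47.6 to 60.1%, against 44.4% of the list). Inside regions open in both, the shares were 118 of 290 in cDC1 (40.7%, 35.2 to 46.4%, against 47.9%) and 130 of 234 in pDC (55.6%, 49.2 to 61.8%, against 52.7%). The cDC1 share inside such regions lay below that of the whole list, and the pDC share over all regions above it, by more than the counting interval. Footprints within a region are not independent, and no replicate check of these gaps could be made.

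The loci fell in a different order for footprints than for regions. Inside regions open in both, 61.0% of cDC1 footprints at Jun were shared (45.7 to 74.3%), 57.4% at Fos (44.2 to 69.7%), 45.7% at Batf (32.2 to 59.8%), 32.4% at Batf3 (22.7 to 43.9%) and 23.1% at Jdp2 (15.1 to 33.6%). In pDC the shares were 48.3% at Jun, 69.4% at Fos, 63.2% at Batf, 53.8% at Batf3 and 42.9% at Jdp2 (28.0 to 59.1%). Within such regions, Jdp2 had the lowest share in both cell types. Jdp2-8, with 2 of 24 cDC1 footprints shared, held many of its unshared ones. Jun held 5.60 footprints per interval in cDC1 but 12.0 in pDC, of which Jun-3 had 35 of 60. Over the 5 loci, a cDC1 interval held 6.41 footprints (6.14 in the whole list) and a pDC interval 6.03 (also 6.03 in the whole list), and median footprint widths were 17.0 bp (cDC1) and 18.0 bp (pDC).

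**Figure D4:**
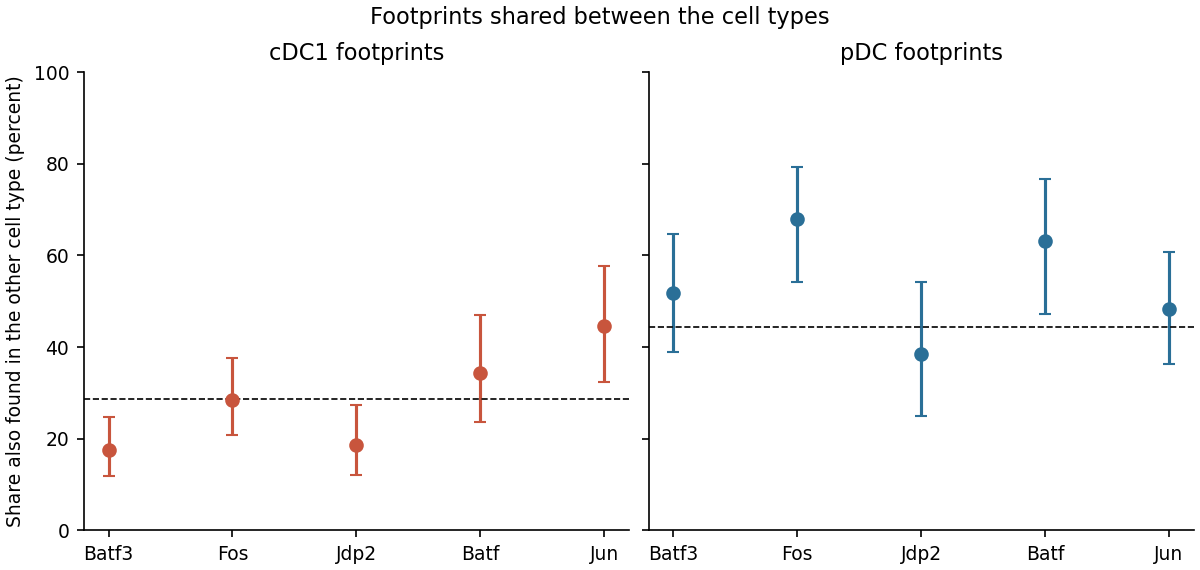
Points give the share (percent) of all footprints of a window that were shared with the other cell type, for cDC1 in the left panel and pDC in the right, with Wilson 95% intervals as bars and the share of the whole list as a dashed line. In cDC1, Batf3 (17.4%) and Jdp2 (18.6%) lie below the dashed line with their whole intervals and Jun (44.6%) above it, and in pDC Fos (68.0%) and Batf (63.2%) lie above it.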

How the data were processed

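Omni-ATAC-seq reads of 2 replicates per cell type were, per the methods of the study and the submitters' processing notes, trimmed with Trim Galore, aligned to mm9 with Bowtie2, filtered for duplicates and alignment quality with SAMtools and used for peak calling with MACS2; the sources used here give no versions. The authors merged replicates before footprinting with HINT-ATAC and deposited a list of peaks and a list of footprints for each cell type. The deposited peak lists give, per summit, the fold enrichment over background (a ratio), the −log10 q-value and the distance of the summit from the start of the peak. The authors' methods name a filter on q, but listed −log10 q values went down to 1.30, so a looser limit applies here. The deposited footprint lists give a value read as a raw tag count, without scaling for library size, from its whole numbers and its higher level in the deeper library. Over which stretch tags were counted is not stated in the sources used.

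On 8 of 21 chromosomes, positions exceeded the GRCm38 length, so the lists were taken as mm9, and nothing was converted between builds. Lines sharing both ends made 1 interval, with the largest −log10 q and fold enrichment. Regions are intervals of both lists joined where they share 1 bp or more. Footprints were paired 1 to 1 where each covered at least 50% of the other, most shared bases first. With 1 merged list per cell type, no p-value was computed. Shares have Wilson 95% intervals, and ratios of a single pair have exact Clopper-Pearson 95% intervals. Reads are PCR products without molecular identifiers, and both ends of a fragment may have been counted, so intervals cover counting error only and may be too narrow.

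The named regions are, in each window, the 3 with the largest −log10 q in each cell type, the 2 strongest open in 1 cell type only, the 2 with a pair farthest to each side and the one with the most footprints; Jdp2-10 and regions named for lacking a pair were added after their values were seen. The windows, lists and measures were chosen with earlier results of these data known. Other AP-1 genes and marker genes were not analysed here. Tools were bedtools 2.31.1 for overlaps, scipy 1.17.1, pandas 2.3.3 and numpy 2.4.6 under Python 3.11.15, and matplotlib 3.10.9 for figures. The ratio step was tested on 8000 simulated pairs, where 200 of 200 4-fold changes were recovered and 0 of 7800 unchanged pairs passed 2-fold. The simulated counts varied by counting error alone, without replicate variation, so the test checks the calculation only. It gives no error rate for the ratios reported here.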

Additional observations from a re-analysis of the deposited data

How the results depend on the processing

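No paired analysis was possible because the replicates of each cell type were merged before the lists were made, and leaving out a replicate could not be run for the same reason. None of the 5 ratios beyond 2-fold in the values reported changed sides of 1 under any setting run, whereas Jdp2-8 did. With both lists limited to intervals at a −log10 q of 10 or more, 36.1% of cDC1 intervals were shared and 22 regions were open in both, and at 50 these were 27.3% and 9 with 1 region open in pDC only. With the cDC1 list limited to the length of the pDC list, 64.2% of cDC1 intervals were shared, and 19 regions were open in cDC1 only and 5 in pDC only. These limits act on the whole lists as well. Whole-list shares at these settings are not given here, so the shifts cannot be read as particular to these loci. With windows trimmed by 10 kb on each side, 100% of pDC intervals were shared and 0 regions were open in pDC only. Scaled by all reads, 19 regions passed 2-fold on the cDC1 side and 1 on the pDC side, against 42.8% and 3.36% of all regions with a pair. By the highest tag count of each region, an alternative chosen after seeing the data, 5 and 1 did. Of all 39830 regions with a footprint in both lists, 10.4% and 13.7% did so. At 1.5-fold, 6 were higher in cDC1, and Jdp2-9, Batf-6 and Jun-1 were higher in pDC. The shares over all regions at 1.5-fold are not given here, so these counts are not set against the genome. At 2-fold, those higher in pDC were 1 with a shortened cDC1 footprint list, in which Jdp2-9 had no pair. With windows extended by 10 kb they were 4, where the share over all regions with a pair was 12.6%. Shared cDC1 footprints were 31.2% at 1 bp, 17.6% at 90% of bases, 40.7% inside regions open in both and 30.7% with the shortened list, and shared pDC footprints 62.7% at 1 bp and 39.4% at 90%. The ratio ranged over the other settings from 3.59 to 4.12 at Batf-3, 2.31 to 2.87 at Batf3-14, 1.86 to 2.32 at Batf3-6, 0.234 to 0.267 at Jdp2-9, 0.386 to 0.549 at Batf-6, 0.442 to 0.575 at Jun-1 and 0.862 to 3.35 at Jdp2-8. Scaled by all reads, Jdp2-9 was at 0.498, Batf-6 at 0.821 and Jun-1 at 0.940. Causes were not tested. Of 64 values over all 5 loci, 41 did not move beyond their counting interval or by over 1.5 times. Lower depth in pDC limits what can be said of weak regions open in cDC1 only.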

Other observations

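Between the Fos and Jdp2 windows lay 50 kb that neither window covers. Of the 6 regions in this stretch, 2 were listed for both cell types, 3 for cDC1 alone and 1 for pDC alone.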
